A study of Mus musculus with 4 samples.

Results

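The neurons described here are the mature olfactory sensory neurons whose identity was given by the odorant receptor gene Olfr728. They were the 83 cells to which the deposited cell table assigned that receptor, out of 9791 mature neurons with a receptor identity and 21809 cell barcodes in all. Mouse 1 gave 21 of them, mouse 2 gave 25, mouse 3 gave 9 and mouse 4 gave 28. The study profiled dissociated main olfactory epithelium of 4 male C57BL/6 (substrain C57BL/6J) mice aged 8 weeks, kept at rest with no odorant exposure and no transgene, with 1 droplet library per mouse. Live nucleated cells had been sorted by their DNA dye before capture, with no selection for a neuronal type. The chemistry read the 3′ end of each transcript and counted molecules by unique molecular identifiers (UMIs). The mouse was the replicate (n = 4), and neurons of 1 mouse were never treated as replicates.

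Each mature olfactory sensory neuron expresses in general a single odorant receptor gene, and the axons of the neurons that share a receptor converge on shared glomeruli in the olfactory bulb. The receptor signals through a G protein, an adenylyl cyclase and a cyclic nucleotide-gated channel. Adhesion and guidance molecules, among them protocadherins, ephrins and their receptors and the Kirrel proteins, differ between populations and take part in the sorting of their axons, and some of them are known to follow the neuron's activity. Calb2 (calretinin) is a calcium-binding protein, and Pcdh10 is a protocadherin that binds its own kind on neighbouring cells.

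The Olfr728 gene lies on chromosome 14 of GRCm38, from 50133758 to 50142680 on the minus strand, and no other gene of the GENCODE M21 annotation overlaps it. Its coding sequence of 936 bases was set beside those of 1136 other receptor genes of that annotation, which shared between 36.8% and 62.8% of their bases with it (median 50.8%). The most alike were Olfr723 with 62.8%, Olfr730 with 62.8% and Olfr724 with 62.7%, all on chromosome 14, so no near-identical copy of Olfr728 was in the set. To show how far the receptor departs from its closest relatives, the gap-free stretch of 90 coding bases with most differences between Olfr728 and Olfr723 is printed here from the GENCODE M21 transcripts, 5′ to 3′. It covers chr14:50139939-50140028 (minus strand) in Olfr728, and coding bases 610 to 699 counted from the start codon. In the Olfr728 line capitals mark the 22 bases found in none of the other three, and in the other lines capitals mark the bases that differ from Olfr728, 41 in Olfr723, 37 in Olfr730 and 41 in Olfr724.
Olfr728: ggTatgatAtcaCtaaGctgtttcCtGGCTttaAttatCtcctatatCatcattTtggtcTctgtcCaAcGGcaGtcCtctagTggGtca
Olfr723: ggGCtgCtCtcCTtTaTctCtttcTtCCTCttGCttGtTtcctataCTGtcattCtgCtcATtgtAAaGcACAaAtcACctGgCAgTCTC
Olfr730: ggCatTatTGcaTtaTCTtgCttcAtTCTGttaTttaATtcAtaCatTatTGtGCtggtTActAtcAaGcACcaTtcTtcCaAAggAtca
Olfr724: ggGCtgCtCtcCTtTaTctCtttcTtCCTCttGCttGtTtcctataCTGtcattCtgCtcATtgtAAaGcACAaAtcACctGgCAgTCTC
The stretches of the other three lie at chr14:49928844-49928933, chr14:50186517-50186606 and chr14:49960372-49960461, all on the minus strand. Olfr723 and Olfr724 were 98.5% identical to each other over their coding sequence. Reads from coding bases of that pair may therefore not be told apart with certainty. The likeness of their 3′ ends, which the libraries read, was not compared.

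Of these close relatives only Olfr724 shared the cluster of the Olfr728 neurons. Of the Olfr728 neurons, 82 of 83 lay in the cluster that the study named "Calb2+ V.", built without receptor genes. All 42 Olfr730 neurons lay in the large ventral cluster, and none of the 6 Olfr723 neurons lay in Calb2+ V. Of the 11 Olfr724 neurons, 10 lay in Calb2+ V. The next receptor genes on either side of Olfr728 on the chromosome were Olfr727, whose 16 neurons were all in the ventral cluster, and Olfr729, with 8 neurons of which none lay in Calb2+ V. The Olfr724 neurons held 132 Calb2 UMIs, 1 Pcdh10 UMI and 0 Cd55 UMIs out of 55809 UMIs. A count of 0 there allows a level of up to 0.661 UMIs per 10000 UMIs (exact Poisson interval, which covers counting error only). Cd55 was present in some of the 10 populations most alike in coding bases. Olfr730, Olfr1278, Olfr1306, Olfr1276, Olfr1307 and Olfr1312 neurons (4 to 42 each) had it at 2.20, 3.34, 3.53, 5.09, 3.03 and 6.54 UMIs per 10000 UMIs. Their Ptn was at 0.720, 0, 0, 0, 0.433 and 0. Olfr723, Olfr724, Olfr726 and Olfr727 neurons had 0 Cd55 UMIs. Nearby on chromosome 14, Olfr731 neurons had Cd55 at 11.6 and 0 Ptn UMIs.

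The 4 libraries held 4746 to 6003 barcodes and 23157467 to 32382702 UMIs. Of the barcode sequences 54 occurred in 2 libraries, and none was that of an Olfr728 neuron.

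The receptor itself was abundant in each neuron that it named. Its level, the sum of Olfr728 UMIs per 10000 UMIs of all genes, was 45.9 in mouse 1, 51.9 in mouse 2, 44.6 in mouse 3 and 55.6 in mouse 4 (mean 49.5 ± 5.16, SD, n = 4), and is given as a description because it chose the neurons. Single neurons held between 6 and 120 Olfr728 UMIs, with a median of 32. The other neurons of Calb2+ V. held 0 Olfr728 UMIs in all 4 mice. The population made up 0.781%, 1.07%, 0.512% and 0.933% of the neurons with a receptor identity in mice 1 to 4, with exact 95% binomial intervals of 0.484 to 1.19, 0.692 to 1.57, 0.234 to 0.969 and 0.621 to 1.35%, so the low share of mouse 3 overlapped the others within counting error.

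Olfr728 neurons were deeper than their neighbours in the cluster. Their median UMI count was 7740, 5966, 9723 and 5721 in mice 1 to 4, against 5590, 4575, 6779 and 4022.5 in the other neurons of Calb2+ V. The ratio of medians lay between 1.30 and 1.43, above 1 in 4 of 4 mice (mean log2 ratio 0.47 ± 0.062, SD). The exact two-sided sign-flip test over mice gave p = 0.125, the smallest that 4 mice allow. Among the populations with at least 3 neurons in a mouse, their median depth ranked 10 of 380, 24 of 316, 5 of 251 and 10 of 418 from the highest. All levels below are relative to the UMIs of the same neurons, and the comparison was repeated with neurons thinned to 3000 UMIs. Neurons with fewer UMIs were left out of it, which kept 77 of 83 Olfr728 neurons and 420 of 460 neighbours. In UMI data, fewer molecules captured per cell and less RNA per cell cannot be told apart.

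**Figure D1:**
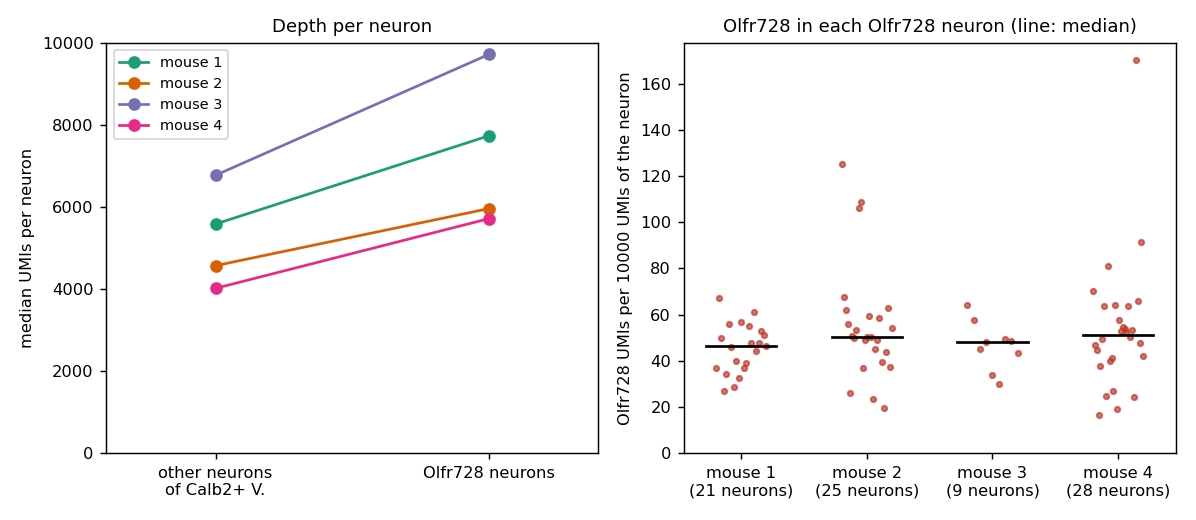
Left, median UMIs per neuron (vertical axis) in the other neurons of Calb2+ V. and in Olfr728 neurons, with 1 line per mouse; all 4 lines rise, from 4022.5 to 6779 on the left to 5721 to 9723 on the right. Right, Olfr728 UMIs per 10000 UMIs in each of the 83 neurons, by mouse, spread sideways by depth, with the median of each mouse as a line; single neurons range from 16.7 to 170.

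UMIs of another receptor gene were found in 19.0%, 20.0%, 55.6% and 7.14% of them in mice 1 to 4, against 23.0%, 24.2%, 41.9% and 24.3% in the other neurons of the cluster. The share was lower in 3 of 4 mice, by 2.90 percentage points on average, and the groups overlapped (exact sign-flip test, p = 0.625). Without mouse 4 the difference turned to 1.85 points higher. Mouse 3 had the highest share in both groups. With neurons thinned to 3000 UMIs, and those with fewer left out, the shares were 9.74% ± 4.42 and 18.3% ± 3.64 (SD, n = 4), lower in 4 of 4 mice (exact sign-flip test, p = 0.125, the smallest possible). Of the 20 further receptor detections, 19 were of 1 UMI. Olfr750 was found in 3 neurons and Olfr727 in 2, and each of the other 15 receptors in 1.

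Marker genes were read as a description of the label. Calb2 was found in 82 of 83 Olfr728 neurons and in 460 of 460 other neurons of Calb2+ V., and Pcdh10 in 71 and 34 of them. The cluster was built on these cells and is named for Calb2, so the presence of Calb2 does not test the label. Omp, the marker of mature olfactory neurons, was at 68.9 ± 4.23 UMIs per 10000 UMIs in Olfr728 neurons and at 75.8 ± 3.86 in the other neurons of the cluster (SD, n = 4). Nfix, a transcription factor of ventral neurons, was at 6.27 ± 1.11 in Olfr728 neurons and at 3.86 ± 0.50 in the neurons of the other clusters. Nqo1, an enzyme of dorsal neurons, had 2 UMIs in all Olfr728 neurons. Markers of other cells of the epithelium were at or near 0 in Olfr728 neurons. Horizontal basal cell markers (3 of 3) and immune markers (4 of 4) were at 0 UMIs, and the summed level of the sustentacular, microvillar and globose basal lists reached at most 0.0629 UMIs per 10000 UMIs in any mouse. The 3 haemoglobin genes together ranged from 0 to 1.16 in Olfr728 neurons and from 0.152 to 2.56 in their neighbours.

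The 1 neuron outside the cluster came from mouse 3 and had been placed in the ventral cluster. It had 2342 UMIs, 15 of them of Olfr728, with 0 Calb2 UMIs, 1 Pcdh10 UMI and 2 Camk2n1 UMIs. It was kept as a member, and leaving it out gave 298 genes in place of the 304 reported next.

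The main question was which non-receptor genes set the Olfr728 neurons apart from the 460 other neurons of Calb2+ V., which express 86 other receptors. Cd55 and Pcdh10, nearly absent from the neighbours, were found in most Olfr728 neurons, while Ptn and Mslnl, present in most neighbours, were nearly absent from Olfr728 neurons. In edgeR's quasi-likelihood test on the UMI sums of each mouse, with the mouse as a block, 304 of 5143 genes tested passed an adjusted p of 0.05 (5.91%), 150 of them higher (2.92%) and 154 lower (2.99%) in Olfr728 neurons. Of the 304, 285 moved the same way in 4 of 4 mice. The levels of the 4 mice did not overlap between the groups for 515 of the 5143 genes (10.0%). The neighbours were chosen by a clustering of these same non-receptor genes, so genes that define Calb2+ V. were held alike by that choice. Without the filter on low counts, 101 genes were higher and 216 lower of 16200 tested. DESeq2 called 115 of the 304 genes and no other. Depth moved with the groups as described above. With the neurons of at least 3000 UMIs thinned to that depth, 131 of 3156 genes passed. Of the 304 genes 255 were tested there, and 121 were called in the same direction.

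Cd55, the decay-accelerating factor that protects cells from complement, had the largest rise. Its level in Olfr728 neurons was 5.72, 2.93, 3.71 and 6.67 UMIs per 10000 UMIs in mice 1 to 4, against 0.114, 0.353, 0.168 and 0.0502 in the other neurons of the cluster. The lowest mouse of one group was above the highest of the other. The log2 change was 4.90 ± 0.24 (SE, adjusted p = 2.7e-22). One neuron held 30 of the 271 Cd55 UMIs.

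Pcdh10 was at 4.27, 2.93, 5.50 and 5.29 UMIs per 10000 UMIs in Olfr728 neurons and at 0.190, 0.166, 0.168 and 0.234 in their neighbours. These groups did not overlap either, and the log2 change was 4.53 ± 0.19 (adjusted p = 7.8e-25). Both transcripts occurred in the same neurons. Of the 83 Olfr728 neurons 52 (62.7%) had UMIs of both, 19 of Pcdh10 alone, 7 of Cd55 alone and 5 of neither. Of the 460 neighbours 3 had both and 407 had neither. At a common depth of 3000 UMIs, Pcdh10 was found in 71.4% of 77 Olfr728 neurons (exact 95% interval 60.0 to 81.2%) and in 5.24% of 420 neighbours (3.31 to 7.82%). Cd55 was found in 55.8% (44.1 to 67.2%) and 2.86% (1.48 to 4.94%) of the same neurons.

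Of the 14 non-clustered protocadherins listed, 6 had enough UMIs to be tested. Of these, 3 rose and 1 fell, and 2 did not pass, beside 2.92% higher and 2.99% lower over all genes. The median log2 change of the 6 was 1.24, against 0.0013 over all genes tested. The filter on low counts kept genes with enough UMIs in either group. Pcdh8, Pcdh10 and Pcdh11x were low in the neighbours and entered through Olfr728 neurons. The count and the median of the 6 therefore do not measure the family. Each of the 3 genes that rose kept its call without that filter. Pcdh8 was between 1.02 and 1.57 UMIs per 10000 UMIs in Olfr728 neurons and between 0.152 and 0.353 in their neighbours (log2 change 2.68 ± 0.29, adjusted p = 1.1e-09). Pcdh11x, an X-linked member, was between 0.682 and 1.31 against 0.0635 to 0.208 (3.03 ± 0.35, adjusted p = 5.7e-09). Pcdh17 went the other way, with 0.754, 0.0682, 0.478 and 0.818 in mice 1 to 4 of the Olfr728 neurons and 1.21 to 1.72 in their neighbours (-1.39 ± 0.26, adjusted p = 0.00016). In all of these the mice of the groups did not overlap. Low Pcdh17 was not particular to Olfr728, since it was at 0.690 ± 0.543 in Olfr55 neurons and at 0.284 ± 0.354 in Olfr1507 neurons, both mostly of the same cluster.

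**Figure D2:**
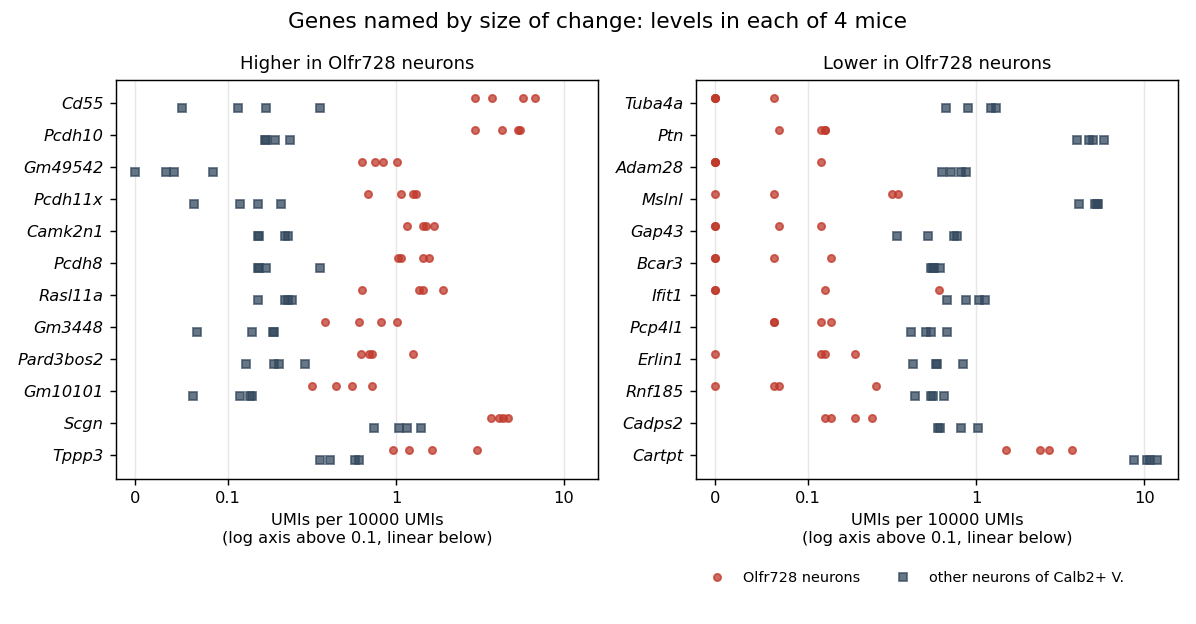
Levels in UMIs per 10000 UMIs (horizontal axis, logarithmic above 0.1 and linear below) of the 12 genes with the largest rise and the 12 with the largest fall in Olfr728 neurons, with 1 point per mouse. Circles are Olfr728 neurons and squares the other neurons of Calb2+ V.; in every row the 4 circles lie to one side of the 4 squares.

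The other genes of the largest rises were of several kinds. Camk2n1, an inhibitor of the kinase CaMKII, was at 1.51, 1.16, 1.67 and 1.45 UMIs per 10000 UMIs against 0.152, 0.229, 0.219 and 0.151 in the neighbours (2.96 ± 0.28, adjusted p = 8.6e-12). Scgn (secretagogin), an EF-hand calcium sensor, was the most abundant of them after Cd55 and Pcdh10, at 4.09, 3.68, 4.30 and 4.66 against 0.736, 1.41, 1.04 and 1.16 (1.96 ± 0.15, adjusted p = 2.5e-14). Both genes kept every mouse of the Olfr728 neurons above every mouse of the neighbours. Rasl11a, a small GTPase, rose by 2.53 ± 0.30, and Tppp3, a protein that promotes the assembly of tubulin, by 1.86 ± 0.24 on the log2 scale. The rest of the 12 were Gm49542, Gm3448, Gm10101 and Pard3bos2, transcripts at 0.315 to 1.26 UMIs per 10000 UMIs in each mouse of the Olfr728 neurons, with log2 changes between 2.04 and 4.35. Gm49542 and Gm10101 are non-coding RNAs, Pard3bos2 is an antisense transcript of Pard3b, and Gm3448 overlaps Tcte3 on its own strand, so its counts are uncertain.

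Ptn (pleiotrophin), a secreted heparin-binding growth factor, was nearly absent from Olfr728 neurons. It was at 0.126, 0.0682, 0.120 and 0.126 UMIs per 10000 UMIs in Olfr728 neurons and at 4.99, 4.68, 3.96 and 5.79 in their neighbours, a log2 change of -5.47 ± 0.27 (adjusted p = 2.7e-22). Only 6 of 83 Olfr728 neurons had a Ptn UMI, against 322 of 460 neighbours. Mslnl, a mesothelin-like surface protein, was at 0.314, 0.341, 0 and 0.0629 against 5.12, 5.32, 4.08 and 5.24 (-4.64 ± 0.25, adjusted p = 1.5e-20). After thinning to 3000 UMIs, Mslnl was found in 6.49% of Olfr728 neurons (2.14 to 14.5%) and in 66.7% of their neighbours (61.9 to 71.2%).

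Tuba4a, an alpha-tubulin, and Adam28, a metalloprotease, each had 1 UMI in all Olfr728 neurons, against 242 and 186 in the neighbours. The neighbours were 53.9-fold higher in Tuba4a (exact counting interval 9.59 to 2139) and 41.5-fold higher in Adam28 (7.35 to 1646). The neighbours were uneven in both genes, as Olfr55 neurons had 5 Tuba4a and 6 Adam28 UMIs, Olfr1213 neurons 0 of both, and Olfr1507 neurons 129 and 64. Gap43, a growth-cone protein, had 2 UMIs and Bcar3, an adaptor of Src signalling, had 3, with the neighbours 16.3-fold (4.42 to 136) and 10.4-fold (3.49 to 51.0) higher. Cartpt, the precursor of the CART peptide, fell without being lost. It was at 1.51, 2.39, 3.71 and 2.71 UMIs per 10000 UMIs in Olfr728 neurons and at 10.9, 8.64, 11.9 and 10.4 in their neighbours (-2.08 ± 0.13, adjusted p = 2.7e-18). The remaining genes of the largest falls were Ifit1, Pcp4l1, Erlin1, Rnf185 and Cadps2, each with 5 to 9 UMIs in all Olfr728 neurons and log2 changes between -2.78 and -2.23. DESeq2 did not call Ifit1, Pcp4l1, Erlin1 and Rnf185.

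Of the 58 guidance and sorting molecules listed, 21 were tested, of which 10 fell, 3 rose and 8 did not pass, beside 2.99% lower and 2.92% higher over all genes. Their median log2 change was -0.48, against 0.0013 over all genes. The filter on low counts kept genes with enough UMIs in either group. Members low in Olfr728 neurons, such as Kirrel2, Tenm2 and Robo2, could enter through the neighbours. The count and the median of the 21 therefore do not measure the family. The same limit holds for the counts of lists below with fallen members nearly absent from Olfr728 neurons, such as Gap43, Pcp4l1, Ptn and Adam28. Kirrel2, Tenm2 and Robo2 kept their calls without that filter. Kirrel2, a homophilic adhesion molecule that sorts axons and is known to follow activity, was at 0.566, 0.205, 0.239 and 0.566 UMIs per 10000 UMIs against 1.75, 1.37, 1.82 and 1.47 (-1.92 ± 0.26, adjusted p = 2.5e-07). Its relative Kirrel3, the teneurin Tenm2 and the Slit receptor Robo2 also fell, by 1.28 ± 0.24, 1.91 ± 0.26 and 1.61 ± 0.29 on the log2 scale. The mice of the groups did not overlap for any of the 4. Olfr55 neurons, whose mice overlapped with those of the Olfr728 neurons, had Kirrel3 at 0.764 ± 0.268 and Tenm2 at 0.224 ± 0.210, against 0.633 ± 0.204 and 0.403 ± 0.231 in Olfr728 neurons, and Olfr1507 neurons had 0 Robo2 UMIs. Smaller falls were those of Epha5, Plxna4, Unc5b, Cntn4, Fstl5 and Ncam1, between 0.43 and 1.07 on the log2 scale. DESeq2 did not call Epha5, Plxna4, Unc5b and Cntn4.

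The genes of this list that rose were Plxna1, a semaphorin co-receptor, Ncam2, a cell adhesion molecule, and Efna5, the ephrin ligand of Epha5. Plxna1 was at 1.70, 2.18, 1.43 and 2.33 against 0.825, 1.08, 1.01 and 0.904 in the neighbours (1.03 ± 0.18, adjusted p = 4.7e-05). Ncam2 rose by 0.93 ± 0.18 (adjusted p = 0.00017) and lost the call after thinning and without mouse 4 (highest adjusted p 0.077). Efna5 was at 2.39, 3.48, 4.90 and 4.53 in Olfr728 neurons and at 2.16, 2.33, 2.31 and 2.58 in their neighbours, so mouse 1 of the Olfr728 neurons lay within the neighbours' range (0.65 ± 0.14, adjusted p = 0.0009). Efna5 lost its call with DESeq2 and after thinning. The ligand Efna5 was thus higher and its receptor Epha5 lower in the same neurons, Epha5 with 0.944 to 1.26 against 1.55 to 1.99 UMIs per 10000 UMIs.

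**Figure D3:**
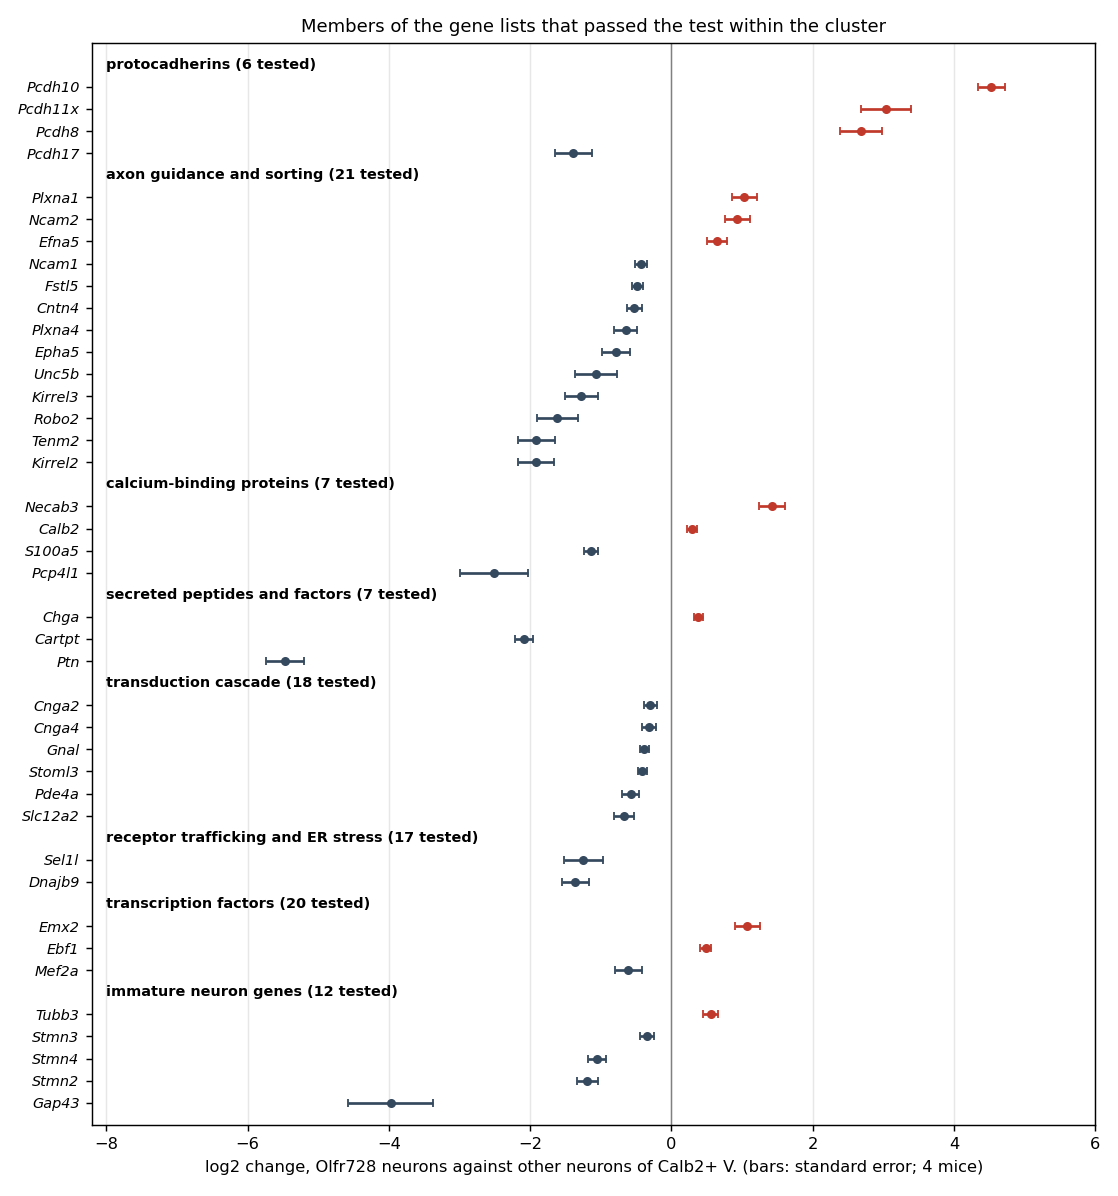
Log2 change in Olfr728 neurons against the other neurons of Calb2+ V. (horizontal axis) for each listed gene that passed the test, by gene list, with the standard error as a bar; each heading gives how many members of the list were tested. Among the protocadherins 3 of 4 points lie to the right of 0, among guidance genes 10 of 13 lie to the left, and the 6 transduction genes all lie to the left by less than 1.

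Of 18 genes of the transduction cascade tested, 6 fell, 0 rose and 12 did not pass, with a median log2 change of -0.20 against 0.0013 over all genes tested (2.99% of all genes fell). Gnal, the olfactory G protein subunit, was at 24.8, 26.5, 24.0 and 25.1 UMIs per 10000 UMIs against 29.0, 33.8, 33.6 and 34.7 (-0.38 ± 0.070, adjusted p = 8.9e-05). Stoml3, a membrane protein of the cilia, was at 84.8 to 96.5 against 117 to 123 (-0.41 ± 0.062, adjusted p = 2.3e-06). Pde4a, a phosphodiesterase, and Slc12a2, a chloride importer, fell by 0.58 ± 0.12 and 0.67 ± 0.14. The channel subunits Cnga2 and Cnga4 changed by -0.30 ± 0.095 and -0.32 ± 0.10 with adjusted p of 0.046 and 0.049. They kept the call in only 5 and 3 of 12 alternatives, and both lost it with DESeq2. With DESeq2, and also after thinning, 3 of these genes were called, Gnal, Pde4a and Stoml3. Against the neurons of the other clusters 6 of 19 tested were lower, beside 4.63% lower over all genes of that comparison. Gnal, Pde4a and Slc12a2 were among the 6, but not Cnga2, Cnga4 or Stoml3. The list median there was -0.16, against -0.14 over all genes. Among 353 populations with at least 10 neurons, Stoml3, Cnga2 and Cnga4 lay above the median population. Gnal, Pde4a and Slc12a2 lay below it.

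S100a5, a calcium-binding protein whose level in olfactory neurons is known to follow their activity, was lower in Olfr728 neurons than in the summed neurons of their cluster. It was at 8.30, 4.37, 6.93 and 4.03 UMIs per 10000 UMIs against 14.1, 11.4, 15.5 and 10.7 in the neighbours (-1.14 ± 0.10, adjusted p = 1.2e-12), while the neurons of the other clusters were at 250 ± 22.7. The low level was not particular to Olfr728, whose pooled 5.80 lay within the 2.06 (Olfr972) to 23.8 (Olfr55) of the 14 other populations mostly in the cluster. Necab3, an EF-hand protein of neurons, was at 2.45, 2.52, 1.91 and 1.57 against 0.686 to 0.910 (1.43 ± 0.19, adjusted p = 9.9e-08). Calb2 itself was at 35.1, 33.8, 26.2 and 27.9 against 26.6, 25.3, 22.0 and 26.3. It was higher in 4 of 4 mice by 0.29 ± 0.070 on the log2 scale (adjusted p = 0.0052), but the groups overlapped, and DESeq2 (adjusted p = 0.096) and the fit with no replicate block (adjusted p = 0.074) did not call it. Over all alternatives its adjusted p ranged from 0.0013 to 0.241. Of the 7 calcium-binding proteins tested of 26 listed, 2 rose (Calb2 and Necab3) and 2 fell (S100a5 and Pcp4l1), beside 5.91% called over all genes. Scgn, described above, was not on that list.

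Among immediate early genes, 0 of 8 tested fell and 1 rose, beside 5.91% called over all genes. That was Rheb (0.55 ± 0.18, adjusted p = 0.049), which lost the call in 10 of 12 alternatives. Of genes of the unfolded protein response and receptor trafficking, 2 of 17 tested fell and 0 rose, beside 2.99% lower over all genes. Dnajb9, a co-chaperone of the endoplasmic reticulum, was at 0.629, 1.02, 1.08 and 1.13 UMIs per 10000 UMIs against 2.23 to 2.64 (-1.36 ± 0.19, adjusted p = 4.9e-07). Sel1l, of the degradation machinery of that compartment, fell by 1.25 ± 0.28 (adjusted p = 0.002), a call that DESeq2 did not make. The other 15 did not pass.

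Of 12 genes of immature neurons tested, 4 were lower and 1 higher, beside 2.99% lower and 2.92% higher over all genes. Besides Gap43, the stathmins Stmn2, Stmn3 and Stmn4 fell, Stmn2 from 3.03 to 4.41 in the neighbours to 1.20 to 2.03 UMIs per 10000 UMIs in Olfr728 neurons (-1.19 ± 0.15, adjusted p = 8.5e-08). DESeq2 did not call Stmn3 and Stmn4. Gap43 was uneven, at 0.590 ± 0.202 in the neighbours, 0.144 ± 0.027 in the other clusters, 0.136 ± 0.180 in Olfr55 and 1.14 ± 1.26 in Olfr1507 neurons. Against the other clusters Gap43 was not called, Gng8 of the same list was higher, and Stmn2, Stmn3 and Stmn4 were lower. Whether Olfr728 neurons differ in maturity was not tested. Tubb3, a neuronal tubulin, rose by 0.56 ± 0.11 (adjusted p = 0.00018). Of 20 transcription factors tested, 2 rose and 1 fell, beside 5.91% called over all genes. Emx2, a homeodomain factor needed for the expression of many receptors, was at 1.95, 1.84, 1.91 and 1.89 in Olfr728 neurons and at 0.863, 0.997, 0.842 and 0.871 in their neighbours (1.08 ± 0.18, adjusted p = 2.4e-05). Ebf1, an Olf/EBF factor that binds receptor promoters, was at 14.4 to 16.8 against 10.8 to 11.6 (0.49 ± 0.079, adjusted p = 1.2e-05). Mef2a was at 0.478 to 1.71 against 1.79 to 2.06 (-0.61 ± 0.19, adjusted p = 0.047) and lost the call in 8 of 12 alternatives.

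Secreted peptides gave 2 lower and 1 higher of 7 tested, beside 5.91% called over all genes. Besides Ptn and Cartpt, Chga (chromogranin A), the core protein of dense vesicles, was at 39.8, 44.1, 43.1 and 43.2 UMIs per 10000 UMIs against 31.2, 35.4, 34.3 and 29.8 (0.38 ± 0.066, adjusted p = 3.8e-05). Every mouse of the Olfr728 neurons was above every mouse of the neighbours. Ion channels gave 1 lower (Scn9a, -0.53 ± 0.095, adjusted p = 7.1e-05) and 0 higher of 15, and presynaptic genes and neuromodulator receptors 1 higher (Gabbr2, 0.75 ± 0.23, adjusted p = 0.036) and 0 lower of 17. These shares are near the 5.91% called over all genes. Scn9a lost the call after thinning, and Gabbr2 lost it in 8 of 12 alternatives, DESeq2 and thinning among them. Of 12 markers of zones and subsets tested, 4 were higher (Cd55, Tppp3, Cidea and Nfia) and 2 lower (Ptn and Adam28), beside the same 5.91%, and DESeq2 did not call Cidea and Nfia. Nfia lost the call in 8 of 12 alternatives. Cidea was higher than in Olfr55 neurons (2.92 ± 0.34, adjusted p = 1.0e-07) and lower than in Olfr1507 neurons (-1.35 ± 0.20, adjusted p = 2.3e-05).

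Olfr728 neurons were next set beside single populations, taken whole, with no neuron left out by its cluster. Olfr55 was the largest other population of Calb2+ V., with 44 of its 75 neurons there, and Olfr1507 the next, with 39 of 42. The Olfr728 sums entered each comparison, so these are not independent of each other or of the one above. Against Olfr55 neurons 111 of 2315 genes passed (4.79%), 56 higher (2.42%) and 55 lower (2.38%) in Olfr728 neurons, and the levels of 8.55% of the genes did not overlap. Against Olfr1507 neurons 230 of 1839 passed (12.5%), 101 higher (5.49%) and 129 lower (7.01%), with 17.2% not overlapping. DESeq2 called 37 and 97.

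Pcdh10, Cd55 and Camk2n1 had the largest rises against Olfr55 neurons. Olfr55 neurons had 1 Pcdh10 UMI, 2 Cd55 UMIs and 1 Camk2n1 UMI in all, and Olfr728 neurons were 178-fold (31.6 to 7049), 99.9-fold (27.4 to 829) and 57.5-fold (10.0 to 2301) higher by exact counting intervals. Ptn, Mslnl and Cadps2 had the largest falls. Ptn was at 4.72, 2.13, 1.49 and 2.15 UMIs per 10000 UMIs in Olfr55 neurons of mice 1 to 4 (-4.55 ± 0.37, adjusted p = 2.2e-11), and Mslnl at 4.09, 4.89, 2.48 and 3.28 (-4.20 ± 0.32, adjusted p = 3.4e-12). Cadps2, which primes dense-core vesicles, was at 0.908 to 1.39 in Olfr55 neurons and at 0.126 to 0.239 in Olfr728 neurons (-2.68 ± 0.48, adjusted p = 0.00028). Of the transduction cascade, 0 of 17 genes tested passed in either direction against Olfr55 by edgeR, beside 4.79% over all genes of that comparison. This count is near that share. The median log2 change of the 17 was -0.098.

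Against Olfr1507 neurons the largest rises were those of Olig1, Cd55 and Plxna1. Olig1, a transcription factor of the basic helix-loop-helix class, had 0 UMIs in the 42 Olfr1507 neurons and 105 in Olfr728 neurons, at least 15.6-fold higher with the floor of 3 counts over the group. Plxna1 had 1 UMI there and was 48.2-fold higher in Olfr728 neurons (8.47 to 1922), and Cd55 had 2 and was 60.5-fold higher (16.6 to 502). The largest falls were Tuba4a, Adam28 and Ptn. Tuba4a was at 5.18, 6.04, 5.88 and 4.62 UMIs per 10000 UMIs in Olfr1507 neurons, and Ptn at 5.39, 8.97, 5.41 and 8.14 (-5.92 ± 0.31, adjusted p = 8.3e-13). Of 17 transduction genes 11 were lower and 1 higher in Olfr728 neurons here, beside 7.01% lower and 5.49% higher over all genes of this comparison, Stoml3 with 147 ± 9.62 in Olfr1507 neurons and 90.6 ± 5.18 in Olfr728 neurons among them.

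**Figure D4:**
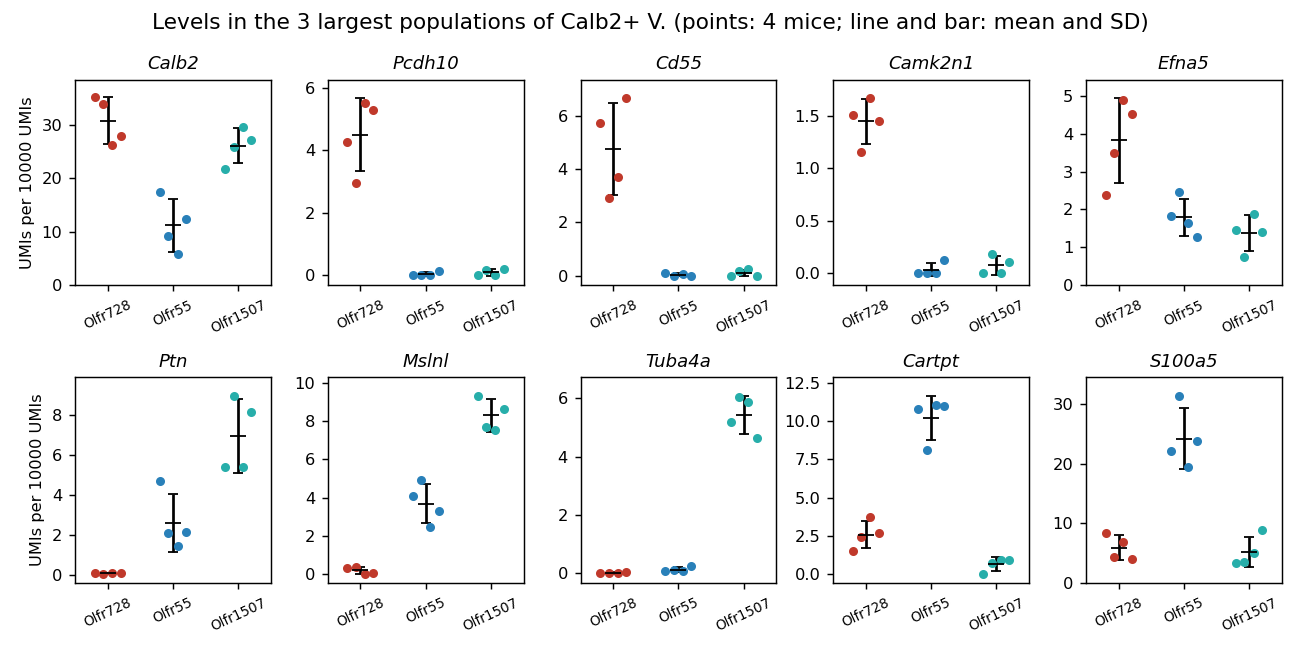
Levels in UMIs per 10000 UMIs (vertical axis of each panel) of 10 genes in Olfr728, Olfr55 and Olfr1507 neurons, with 1 point per mouse and the mean and SD over 4 mice as a line and bar. Pcdh10, Cd55 and Camk2n1 lie near 0 in Olfr55 and Olfr1507 neurons, while Cartpt is high in Olfr55 (mean 10.2) and low in Olfr728 (2.58) and Olfr1507 neurons (0.645).

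Some differences seen against the cluster depended on which population, taken whole, stood beside Olfr728. Of the 75 Olfr55 neurons 44 lay in Calb2+ V., so Olfr55 levels also hold neurons of other clusters. Cartpt was lower than in Olfr55 neurons (8.09 to 11.1; -2.05 ± 0.16, adjusted p = 9.7e-12) and higher than in Olfr1507 neurons (0, 0.732, 0.941 and 0.905; 1.84 ± 0.34, adjusted p = 0.00034). S100a5 was lower than in Olfr55 neurons (24.2 ± 5.10; -2.07 ± 0.15, adjusted p = 3.1e-12), and against Olfr1507 neurons (5.15 ± 2.57) the log2 change was -0.024 ± 0.24. Calb2 was higher than in Olfr55 neurons (11.2 ± 4.94; 1.49 ± 0.13, adjusted p = 1.0e-10) and against Olfr1507 neurons (26.1 ± 3.30) its log2 change was 0.18 ± 0.12. Pcdh10, Cd55, Camk2n1, Scgn, Necab3, Efna5 and Chga were higher and Ptn and Mslnl lower in both comparisons, each with an adjusted p under 0.05. Efna5 was at 1.79 ± 0.49 in Olfr55 and at 1.37 ± 0.48 in Olfr1507 neurons, against 3.83 ± 1.13 in Olfr728 neurons.

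The levels were also ranked across the 353 populations with at least 10 neurons, with UMIs pooled over mice. Pcdh10 in Olfr728 neurons ranked 10 from the highest and Cd55 ranked 59. At a cutoff of 2 UMIs per 10000 UMIs, 3 populations had both above it. These were Olfr728 with 4.40 and 4.94, Olfr608 with 3.26 and 15.0, and Olfr1271 with 2.87 and 3.03. The other two lay mostly in the clusters Cd55+ D. and Dlg2+ V., with Calb2 at 0 and 0.0797. Efna5 (3.68) and Chga (42.4) were higher in Olfr728 neurons than in any of the other 352, and Necab3 (2.13) ranked 2, Scgn (4.18) 4 and Camk2n1 (1.42) 5. The next populations were close, with 3.57 for Efna5 in Olfr374 neurons and 40.1 for Chga in Olfr314 neurons, and this order has no replicate error. From the lowest, Ncam1 (9.85) ranked 3, Stmn2 (1.64) 6, Ifit1 8 and Epha5 (1.04) 11. Several of the largest changes within the cluster were common across populations. From the lowest, Ptn ranked 75, Adam28 106, Tuba4a 134 and Gap43 158, and 62, 105, 133 and 157 populations had 0 UMIs of them. From the highest, Pcdh11x ranked 36, Pcdh8 45, Tppp3 68 and Rasl11a 106.

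**Figure D5:**
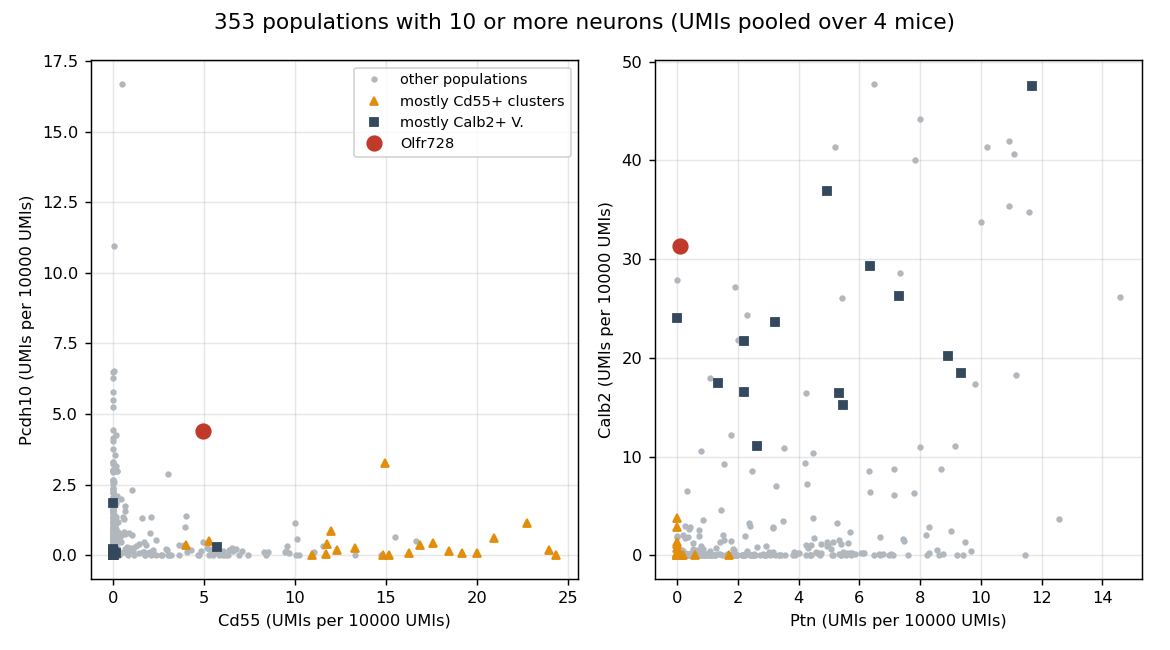
Each point is 1 of 353 populations with 10 or more neurons, with UMIs pooled over mice: on the left Cd55 (horizontal) against Pcdh10 (vertical), on the right Ptn against Calb2, in UMIs per 10000 UMIs. Olfr728 (large circle) has Cd55 at 4.94 with Pcdh10 at 4.40, and Ptn at 0.109 with Calb2 at 31.3, apart from most squares, which are populations mostly in Calb2+ V. Triangles are populations mostly in Cd55+ clusters.

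The other 14 such populations in Calb2+ V. left Olfr728 outside their range for some genes and inside it for others. Pcdh10 was between 0 and 1.84 UMIs per 10000 UMIs in them, highest in Olfr195 neurons, which also had the highest Camk2n1 of the cluster (2.39), above Olfr728. Olfr728 lay inside the range of the others for Cartpt (0.694 to 19.4), S100a5, Kirrel2 (0 to 5.15) and Calb2 (11.1 to 47.5), and just above it for Efna5 (1.34 to 3.57). Without Olfr1213, Cd55 was between 0 and 0.163, Ptn between 1.33 and 11.7, Mslnl between 1.91 and 12.9 and Scgn between 0.132 and 1.48. Olfr1213, singled out after its values were seen, had 15 neurons in 4 mice and resembled Olfr728 in part. Its Cd55 level was 5.71 (exact Poisson interval 4.09 to 7.74), Scgn 4.31 (2.93 to 6.12), Cartpt 2.50 (1.48 to 3.96) and Mslnl 0.139 (0.0035 to 0.775), and Ptn had 0 UMIs of 71862, which allows up to 0.513. It differed from Olfr728 in Pcdh10, at 0.278 (0.0337 to 1.01) against 4.40 (3.86 to 4.99), in Camk2n1, at 0.139 (0.0035 to 0.775) against 1.42 (1.12 to 1.78), and in Pcdh8, at 0.278 (0.0337 to 1.01) against 1.31 (1.03 to 1.65), intervals that do not overlap and cover counting error only. The same held for Calb2, at 24.1 (20.6 to 27.9) against 31.3 (29.9 to 32.9). It also held for Chga, at 33.7 (29.6 to 38.2) against 42.4 (40.7 to 44.2), and S100a5, at 2.23 (1.27 to 3.62) against 5.80 (5.18 to 6.47).

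Against the 8996 neurons of the other clusters, 795 of 11328 genes passed (7.02%), 271 higher (2.39%) and 524 lower (4.63%), and the levels of 18.1% did not overlap. DESeq2 called 230 higher and 188 lower, so the excess of lower genes depended on the method. The median log2 change over all genes tested was -0.142 with edgeR and -0.075 with DESeq2. The clusters were drawn from these cells, so the genes that separate Calb2+ V. from the rest had to differ and are given as a description. The largest rises were Calb2, at 30.8 ± 4.38 against 2.09 ± 0.25 UMIs per 10000 UMIs, Camk2n1 (1.45 ± 0.21 against 0.123 ± 0.028) and Pard3bos2. Kcnmb3, a subunit of calcium-activated potassium channels, Cd36, a scavenger receptor that marks other neurons, and Pappa, a secreted protease, had 0 UMIs in the 83 neurons, and the other clusters were at least 16.1-fold, 14.0-fold and 12.0-fold higher with the floor of 3 counts over the group. Cd55 was also higher than in the other clusters (2.18 ± 0.26), by 1.06 ± 0.11 on the log2 scale, and so was Pcdh10 (0.895 ± 0.263), by 2.16 ± 0.13.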

How the data were processed

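Single-cell 3′ RNA libraries of the main olfactory epithelium of 4 mice were analysed, 1 per mouse. The authors made the deposited UMI counts with Cell Ranger 6.0.1 on GRCm38, with the 3′ ends of receptor genes redrawn. The deposited cell table gave cell types, clusters and receptor identities made by the authors in Seurat, and the percent of mitochondrial UMIs of each cell, used as a description only. No doublet caller was run here.

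UMI counts were summed per mouse and group, leaving out 1430 receptor genes. Sums were tested with edgeR 4.0.16 (R 4.3.3): quasi-likelihood test, TMM factors, filterByExpr, mouse as a block and Benjamini-Hochberg adjusted p at 0.05. Levels are UMIs per 10000 UMIs of all genes. Values of cells were compared over mice by an exact two-sided sign-flip test, which cannot go below p = 0.125. Intervals are exact at 95%, and a count of 0 was set to a floor of 3 counts over the group for folds. All intervals cover counting error only. Same-numbered sums came from the same animal, which is why the mouse was a block. Their deviations correlated by 0.147, 0.0283, 0.0392 and 0.0282 in mice 1 to 4. The highest correlation with another mouse was -0.028, 0.0432, 0.015 and 0.0319, above the own value in mice 2 and 4. Alternatives were DESeq2 1.42.0, other filters, no TMM factors, no block, neurons thinned to 3000 UMIs, neurons with exactly 1 receptor, members of the cluster alone and leaving out each mouse. The edgeR fit was also run on simulated counts with the same dispersion for every gene and no effect of the mouse. That setting differs from these data, so it does not test the calls given here.

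Named genes were the 12 with the largest rise and the 12 with the largest fall among called genes that moved the same way in 4 mice with a mean of at least 0.5 UMIs per 10000 UMIs in the higher group (3 in each direction in the other comparisons), called members of the gene lists, Calb2 and Pcdh10. Values of further genes describe these. Members and lists were chosen with earlier results of these data known. Likeness of receptors was taken from coding bases (Biopython 1.88), where protein sequences had been planned. Of 55511 features, 55130 matched GENCODE M21 by gene ID.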

Additional observations from a re-analysis of the deposited data

Results flagged for a closer look

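Of 57 groups of 4 values, 8 held a value far from the other three, and chance gives about 5% of groups. In the other neurons of Calb2+ V., mouse 2 had Pcdh8 at 0.353 UMIs per 10000 UMIs (0.152 to 0.167 in the other mice), mouse 3 had Mslnl at 4.08 (5.12 to 5.32), and mouse 3 had a further receptor in 41.9% of neurons (23.0 to 24.3%). In Olfr728 neurons, mouse 1 had Pard3bos2 at 1.26 (0.614 to 0.717) and mouse 2 had Ptn at 0.0682 (0.120 to 0.126). Tuba4a at 0.0629 in mouse 4 and Adam28 at 0.120 in mouse 3 were each 1 UMI, with 0 in the other mice. The share of Olfr728 neurons in Calb2+ V. was 88.9% in mouse 3, which is 1 neuron of 9, and 100% in the other mice.

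Olfr728 was also read in cells outside the mature neurons. In 6 late immature neurons, each led by Olfr728, 142 Olfr728 UMIs were counted.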

How the results depend on the processing

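Of the 304 genes called against the other neurons of Calb2+ V., every one kept its direction in each alternative in which it was tested. DESeq2 called 115 genes, thinning to 3000 UMIs 131 and leaving out 1 mouse 210 to 300. Against the other clusters DESeq2 called 418 and leaving out 1 mouse 563 to 634. Against Olfr55 neurons DESeq2 called 37 and leaving out 1 mouse 67 (mouse 1), 72 (mouse 2), 83 (mouse 3) or 106 (mouse 4). Against Olfr1507 neurons DESeq2 called 97 and leaving out 1 mouse 126 (without mouse 4) to 204. The cause of these differences was not tested, beyond the fewer animals or UMIs that some settings hold. The fit with no replicate block called 251, 753, 93 and 230 genes in the 4 comparisons. The difference in the share of neurons with a further receptor ranged from -8.43 to 1.85 percentage points when 1 mouse was left out, and turned positive (1.85) without mouse 4. For the 25 genes named by size or as markers, 275 alternative values kept the call, 10 lost it and none turned. Of the 10, 6 were those of Calb2, and the others DESeq2 for Ifit1, Pcp4l1, Erlin1 and Rnf185. After thinning 12 of the 25 genes had no value, Pcdh8, Gm49542, Adam28, Gap43 and Pcp4l1 among them. With exactly 1 receptor 3 had none. Mouse 3 gave 9 neurons, so its levels of rare genes rest on few UMIs.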

Other observations

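Late immature neurons (the cells the study called iOSN2) gave a view of the same receptor at an earlier stage, as sums over cells with exact Poisson intervals that cover counting error only. The 6 cells led by Olfr728 came from 3 mice and held 39747 UMIs. Their Calb2 level was 36.0 UMIs per 10000 UMIs (30.3 to 42.4), against 21.3 in the other 1000 iOSN2 cells, and S100a5 was at 0.755 (0.156 to 2.21) against 160. Pcdh10 was at 1.26 (0.408 to 2.94), below the 4.40 of the mature Olfr728 neurons (3.86 to 4.99), and its interval held the 0.787 of the other iOSN2 cells. Cd55 had 1 UMI, a level of 0.252 whose interval held the 0.557 of the other iOSN2 cells. Ptn was at 1.51 (0.554 to 3.29), above the 0.109 of the mature neurons (0.0402 to 0.238) and below the 5.64 of the other iOSN2 cells (5.47 to 5.81). Gap43, the growth-cone protein, was at 3.77 (2.11 to 6.22) against 8.72 in the other iOSN2 cells. Omp was at 64.9 (57.2 to 73.3) against 47.0 there and 69.5 in the mature Olfr728 neurons. Rasl11a was at 2.77 (1.38 to 4.95) against 0.945 in the other iOSN2 cells. Whether the 6 cells were further in maturation than the others was not tested.

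A further 7 mature neurons expressed Olfr728 beside another receptor and had no single identity. Their Pcdh10 was at 4.09 (2.69 to 5.95) and Cd55 at 2.73 (1.62 to 4.31), while S100a5 had 677 of their 66052 UMIs, a level with an interval of 94.9 to 111, against 5.80 in Olfr728 neurons (5.18 to 6.47). Calb2 was at 14.7 (11.9 to 17.9). Whether these are single cells or pairs captured together was not tested.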
